A study of Arabidopsis thaliana with 10 samples.

Results

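The comparison described here sets Arabidopsis thaliana inflorescences that had received wild-type KLU for 240 min against inflorescences of the same plant lines before induction. It rests on 4 of the 10 arrays of the study, chosen by their titles and paired by line. Lines 3-1 and 4-3, transformed independently, each gave 1 array at 0 min and 1 at 240 min, so n = 2 in each group. All plants carried the klu-2 allele. In these lines a 35S promoter drove AlcR, the ethanol-responsive activator, and AlcR in turn switched on an AlcA promoter in front of the KLU coding sequence once ethanol vapour was given. The groups set beside this comparison were the same 2 lines after 90 min, and lines 1-5 and 3-2, which carried a mutant KLU behind the same promoters and were sampled after 90 and 240 min of vapour. An uninduced array of the mutant lines was not analysed here. Each RNA came from pooled inflorescence tissue with young flower buds of plants grown in soil at 22 °C in 16 h of light and 8 h of dark, and was hybridised to an Affymetrix ATH1 array.

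KLU is the cytochrome P450 CYP78A5. It is known from loss-of-function and overexpression plants as a promoter of organ and seed growth that keeps cells dividing for longer, and it acts beyond the cells that make it. Its substrate and product are not settled, so transcripts that move after induction are one way to look for what the enzyme does. The alc system brings the transgene on without wounding or a change of medium, but the vapour reaches all tissues, and it is itself a metabolite that plants take up and oxidise. Vapour, elapsed time and the hour of the day therefore changed together with KLU between 0 and 240 min, and these cannot be told apart with the 4 arrays. No probe set carries the name of KLU in the gene table used, so the level of the transgene was not analysed here. In bulk tissue, fewer cells of a type and less RNA per cell cannot be told apart.

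The values are RMA levels, which are log2 intensities after background correction and normalisation between arrays, so that a difference of 1 is a 2-fold difference. The medians of the 10 arrays lay between 5.93 and 6.05. Changes are the mean of both lines' differences, with the standard error (SE) of a limma fit that has a term for each line. A probe set was called when its adjusted p was below 0.05. The series design treats the lines as biological replicates, and precision is limited by their number.

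After 240 min 1294 of 22746 probe sets were higher (5.69%) and 1395 were lower (6.13%). The median change over all probe sets was -0.025. Among the calls 780 rises and 667 falls name 1 gene, and 93 and 141 of these have a symbol beyond a locus number. The median size of the change was 1.02 among the rises and 1.01 among the falls. Large changes were more often rises than falls, with 72 rises and 10 falls of at least 8-fold, and 195 rises and 92 falls of at least 4-fold. The called rises came from lower levels, with a median of 6.37 before induction and 7.61 after 240 min, whereas the called falls went from 7.70 to 6.55. Without the uninduced array of line 3-1, 313 rises and 303 falls passed, without the 240 min array of line 3-1 499 and 435, and without that of line 4-3 647 and 644. A smaller group of 243 rises and 226 falls passed with each of the 10 arrays left out in turn.

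The median change of the called probe sets was larger in line 3-1, with 1.11 among the rises and -1.05 among the falls, against 0.90 and -0.94 in line 4-3. Over all probe sets 2392 changed at least 2-fold in line 3-1 and 1688 in line 4-3, and 504 did so upward and 500 downward in both lines. Only 7 probe sets changed at least 2-fold in opposite directions. As a description across probe sets, which share the 4 arrays and are not replicates, the changes of the 2 lines had a Pearson correlation of 0.715 and a Spearman correlation of 0.594. Without any test, 23.7% of all probe sets had both 240 min arrays above both uninduced arrays and 26.4% had both below. With 2 arrays against 2, a sizeable share separates in this way without any change. That share was not estimated, so these percentages do not count probe sets that responded.

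**Figure D1:**
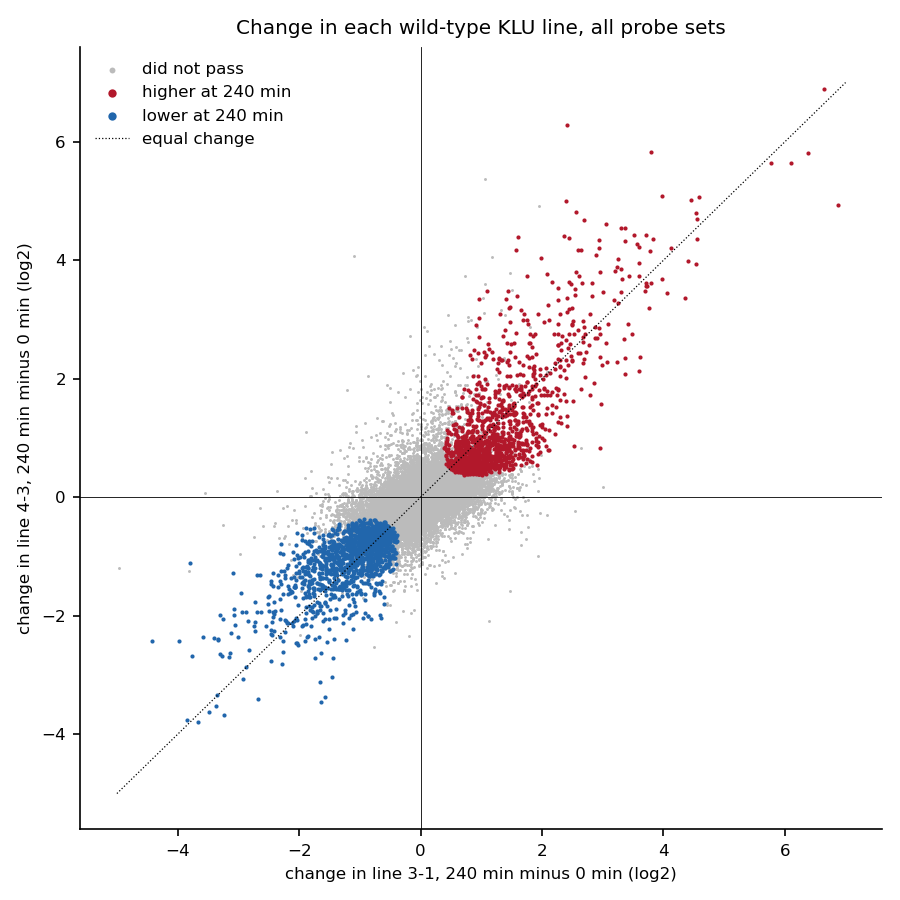
Change from 0 to 240 min in line 3-1 (x axis) and line 4-3 (y axis) on the log2 scale for all 22746 probe sets, with called rises in red, called falls in blue and the rest in grey. The called probe sets lie along the dotted line of equal change, and the upper tail reaches further from 0 than the lower one.

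Unnamed probe sets were not ranked. Among 772 called rises that name 1 gene and whose 2 groups of arrays do not overlap, the 15 that were largest in the line that changed less moved by at least 3.49 in that line, and 4 of the 15 have a symbol. AGL86, a MADS-box transcription factor gene, lay at 3.18 and 3.33 before induction (lines 3-1 and 4-3) and at 9.56 and 9.14 after 240 min. This was a rise of 6.10 ± 0.31 (SE), or 68.4-fold, with an adjusted p of 0.00057. SBTI1.1, which encodes a subtilisin-like serine protease, went from 7.39 and 7.31 to 11.94 and 12.01, a rise of 4.63 ± 0.25 (adjusted p = 0.00057). Its 2 lines were within 0.1 of each other at both times. APS4, an ATP sulfurylase gene of sulphate assimilation, stood at 7.44 and 5.63 before and at 11.23 and 11.45 after, a rise of 4.81 ± 0.45 (adjusted p = 0.0027). Its 2 uninduced arrays differed from each other more than the 2 induced ones. EXPA20 encodes an expansin, a protein that loosens cell walls, and went from 5.72 and 6.01 to 9.43 and 9.58, a rise of 3.64 ± 0.12 (adjusted p = 0.00026).

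The other 11 of these rises are known in the table by locus alone. The largest was AT3G63360, from 3.32 and 3.48 to 9.97 and 10.37, which is a rise of 6.77 ± 0.39 or 109-fold (adjusted p = 0.00064). In rank order the others were AT1G29180, AT3G62780, AT1G17665, AT5G52760, AT3G48640, AT2G32190, AT3G12440, AT4G01870, AT4G29780 and AT3G62730, with changes between 3.59 and 4.83. In all 15 the 240 min arrays lay above both uninduced arrays, which the choice of these genes required. Of the 15, 13 kept their call with each array left out. AT3G48640 lost it without any 1 of the 6 wild-type KLU arrays (adjusted p up to 0.253), and AT5G52760 without any 1 of the 4 arrays compared (up to 0.131).

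Among the 15 falls chosen in the same way from 638, 7 have a symbol, and 3 of these are plastid genes described further on. CSLA01, a cellulose synthase-like gene whose product makes glucomannan, fell most of these. Its level was 9.64 and 9.34 before induction and 5.98 and 5.55 after 240 min, a change of -3.73 ± 0.19 or 13.2-fold (adjusted p = 0.00057). BSMT1, whose product methylates salicylic and benzoic acid to their volatile esters, went from 9.74 and 9.44 to 6.38 and 5.92, a change of -3.44 ± 0.15 (adjusted p = 0.0004). Both genes fell in both lines and kept their calls with each array left out. GH9B8, an endoglucanase gene of glycosyl hydrolase family 9, went from 7.75 and 6.81 to 4.17 and 4.46 (-2.96 ± 0.39, adjusted p = 0.0071). CHIL, a chalcone isomerase-like gene of the flavonoid pathway, went from 9.91 and 9.83 to 7.45 and 7.53 (-2.38 ± 0.34, adjusted p = 0.0098). GH9B8 lost its call without the line 3-1 array at 0 or 240 min (adjusted p up to 0.0665), and CHIL without the line 3-1 array at 0 min or the line 4-3 array at 240 min (up to 0.0899).

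The loci without a symbol among these falls were AT3G14395, AT1G60590, AT1G48100, AT1G20070, AT5G55720, AT3G47295, AT3G26590 and AT1G23205, with changes between -3.55 and -2.38. Of the 15 falls 12 kept their call with each array left out, and besides GH9B8 and CHIL the exception was AT1G20070, which lost it without any 1 of the 4 arrays compared (adjusted p up to 0.168).

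Most of these 30 genes had moved early. In 12 of the 15 rises and 13 of the 15 falls at least 50% of the 240 min change was present at 90 min, on arrays that share the uninduced controls. That share was not counted over all called probe sets. Their median change was 0.58 at 90 min and 1.02 at 240 min among the rises, and -0.615 and -1.005 among the falls. An early move is thus not particular to these genes. SBTI1.1 already stood at 12.06 and 11.83 at 90 min and AGL86 at 8.95 and 8.27. CSLA01 was intermediate at 90 min, with 7.32 and 7.60. AT5G52760, by contrast, lay at 4.55 and 3.41 at 90 min and at 7.16 and 8.25 at 240 min.

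The mutant KLU lines had the same vapour and elapsed time, and their arrays differed from each other in the 15 rises. Relative to the mean uninduced level of the wild-type lines, the median over these 15 genes at 240 min was 2.07 in mutant line 3-2 and 0.515 in mutant line 1-5. At 90 min the medians were 2.04 and 0.185. AGL86, for instance, lay at 7.57 in line 3-2 and 4.33 in line 1-5, and SBTI1.1 at 9.47 and 7.38. In mutant line 3-2 both genes thus lay above the uninduced arrays and below the induced arrays of the wild-type construct. At 240 min 13 of the 15 rises lay above both uninduced arrays in mutant line 3-2 and 10 in line 1-5. For the 15 falls the 2 mutant lines were closer, with medians of -1.70 in line 3-2 and -1.46 in line 1-5. Of these falls, 15 in line 3-2 and 14 in line 1-5 lay below both uninduced arrays. The rises and falls had been chosen with the same uninduced arrays, which favours such counts. The matching share over all probe sets was not counted, so no shared response is read from them. Whether unequal levels of the transgenes move with these line differences was not tested.

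**Figure D2:**
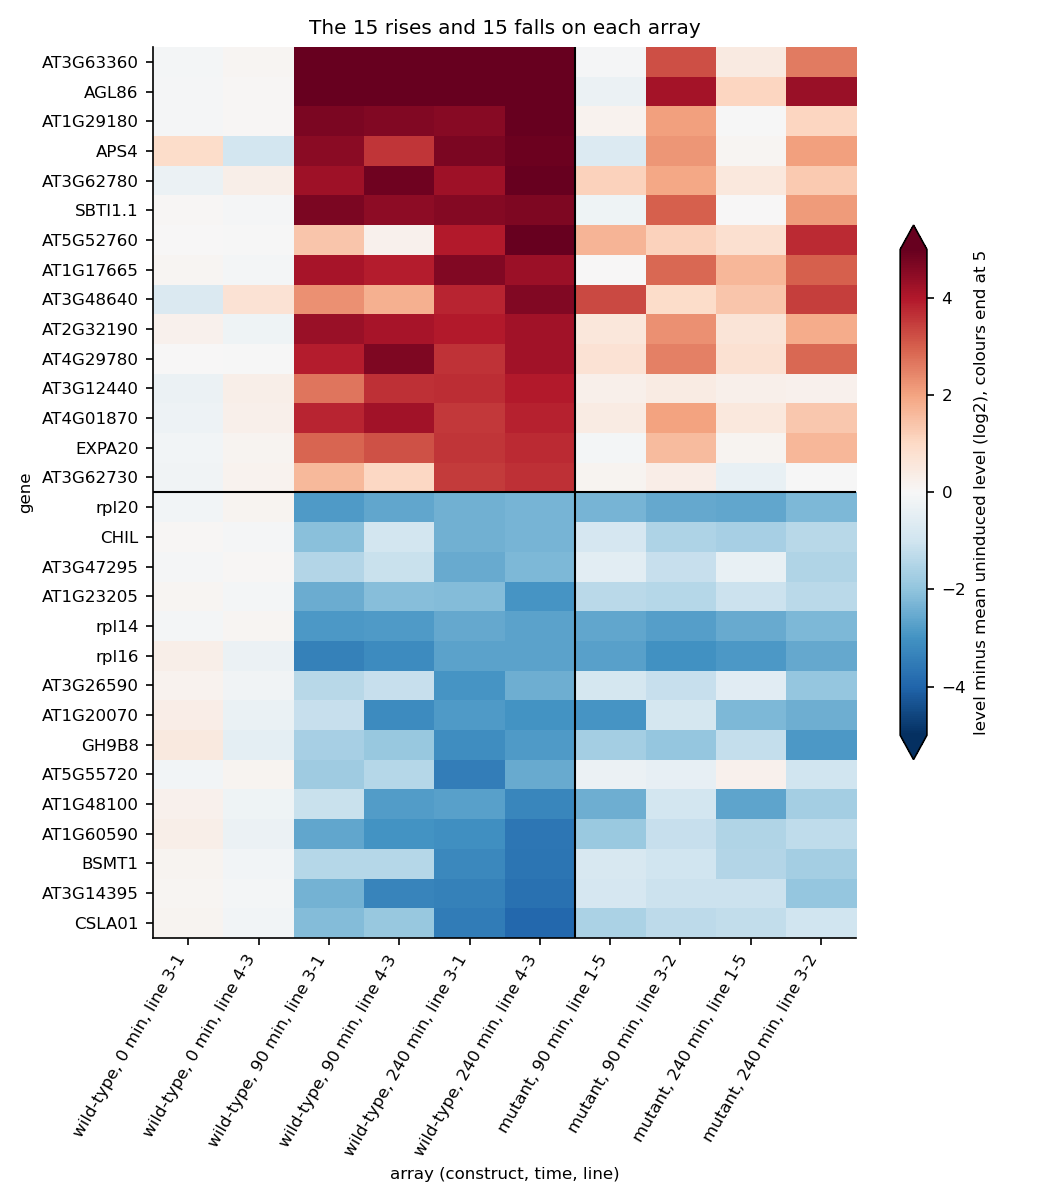
Level minus the mean uninduced level (log2, colour) of the 15 rises (top) and 15 falls (bottom) chosen from probe sets that name 1 gene, on each of the 10 arrays, the wild-type KLU arrays to the left of the vertical line and the mutant KLU arrays to the right. Mutant line 3-2 carries paler reds for most rises, and mutant line 1-5 is nearer to white. The blues of rpl14, rpl16 and rpl20 are as deep in the mutant as in the wild-type columns.

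Across all probe sets 164 were higher (0.721%) and 94 lower (0.413%) in wild-type than in mutant KLU at 240 min, in a fit with 1 mean per group because the constructs sit in different lines. The comparison shares the 240 min wild-type arrays with the one described here. Of the 15 rises 4 passed it, namely AT3G62780, AT1G29180, AT3G12440 and AT3G62730, and 11 did not. AT3G63360, AGL86 and SBTI1.1 were among the 11 (adjusted p between 0.0698 and 0.375), with a difference of 3.40 ± 1.43 for AGL86. AT3G12440 lay at 7.15 and 7.41 with wild-type KLU at 240 min, at 3.69 and 3.66 with mutant KLU, and at 3.18 and 3.73 before induction. Of the 15 falls CSLA01, BSMT1, AT1G60590 and AT5G55720 passed and the other 11 did not. For single genes, calls kept or lost with arrays left out refer to 240 against 0 min, not to the comparison of constructs. The count of 258 calls fell to 4 without the 240 min array of wild-type line 4-3, to 15 without that of mutant line 1-5, to 20 without that of mutant line 3-2, to 74 without that of wild-type line 3-1 and to 143 without either uninduced array.

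The counts of list members below stand against 5.69% higher and 6.13% lower over all probe sets, and 5.89% higher and 8.92% lower among the 1580 probe sets with a symbol. Expansins had 18 named members, of which 1 rose (5.56%) and 5 fell (27.8%), with a median change of -0.17. EXPA20 is the rise given above. EXPB3 went from 9.77 and 9.25 to 7.53 and 7.94 (-1.78 ± 0.24, adjusted p = 0.0075) and EXPA15 from 9.46 and 9.62 to 7.41 and 7.58 (-2.05 ± 0.28, adjusted p = 0.0084). EXPB1, EXPA4 and EXPA8 fell by between 1.17 and 1.92. EXPA20 kept its call with each array left out and none of the 5 falls did, since without the uninduced array of line 3-1 none passed and without the 240 min array of line 3-1 only 1 did.

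Enzymes that cut or rejoin wall glucans, the XTH family and glycosyl hydrolase family 9, had 24 members, with 1 rise (4.17%) and 6 falls (25%) and a median of -0.15. GH9B5 went from 5.36 and 4.83 to 3.60 and 3.71 (-1.44 ± 0.20, adjusted p = 0.0087), XTH32 from 7.88 and 8.79 to 6.83 and 7.66 (-1.09 ± 0.18, adjusted p = 0.013). XTH32 is a case where the lines differed in level by nearly as much as the change, and where pairing by line decided the call, since the adjusted p without the line term was 0.31. GH9B17 rose from 4.28 and 4.09 to 5.62 and 6.41 (1.83 ± 0.35, adjusted p = 0.022), and stood at 4.35 and 4.00 with mutant KLU at 240 min. No member of this list, GH9B17 included, differed between constructs past the threshold. None of the 24 passed when line 3-1 at 0 min was left out.

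Of 8 cellulose synthase and synthase-like genes 3 fell (37.5%), none rose, and the median was -0.77. CSLC5 and ATCSLC08, members of the CSLC subfamily that makes the xyloglucan backbone, changed by -1.01 ± 0.19 and -0.67 ± 0.13 (adjusted p = 0.021 for both). Both lost their calls without any 1 of the 4 arrays compared, so that CSLA01 was the one that held. The TBL family, whose studied members acetylate wall polysaccharides, had 22 members with 3 falls (13.6%), no rise and a median of -0.28, a share of falls near that of all probe sets with a symbol. TBL26 went from 10.05 and 9.69 to 7.43 and 7.75 (-2.28 ± 0.20, adjusted p = 0.0022), while the mutant arrays at 240 min read 9.08 and 9.15. It kept its call with each array left out, whereas TBL45 (-0.98) and TBL28 (-0.86) lost theirs without the 240 min array of either line or the uninduced array of line 3-1, and TBL28 also without the other uninduced array. Of 2 pectin genes, the pectin methylesterase gene PME61 rose, from 6.82 and 6.33 to 8.14 and 7.90 (1.45 ± 0.20, adjusted p = 0.0078, and 0.0591 without the 240 min array of line 3-1).

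**Figure D3:**
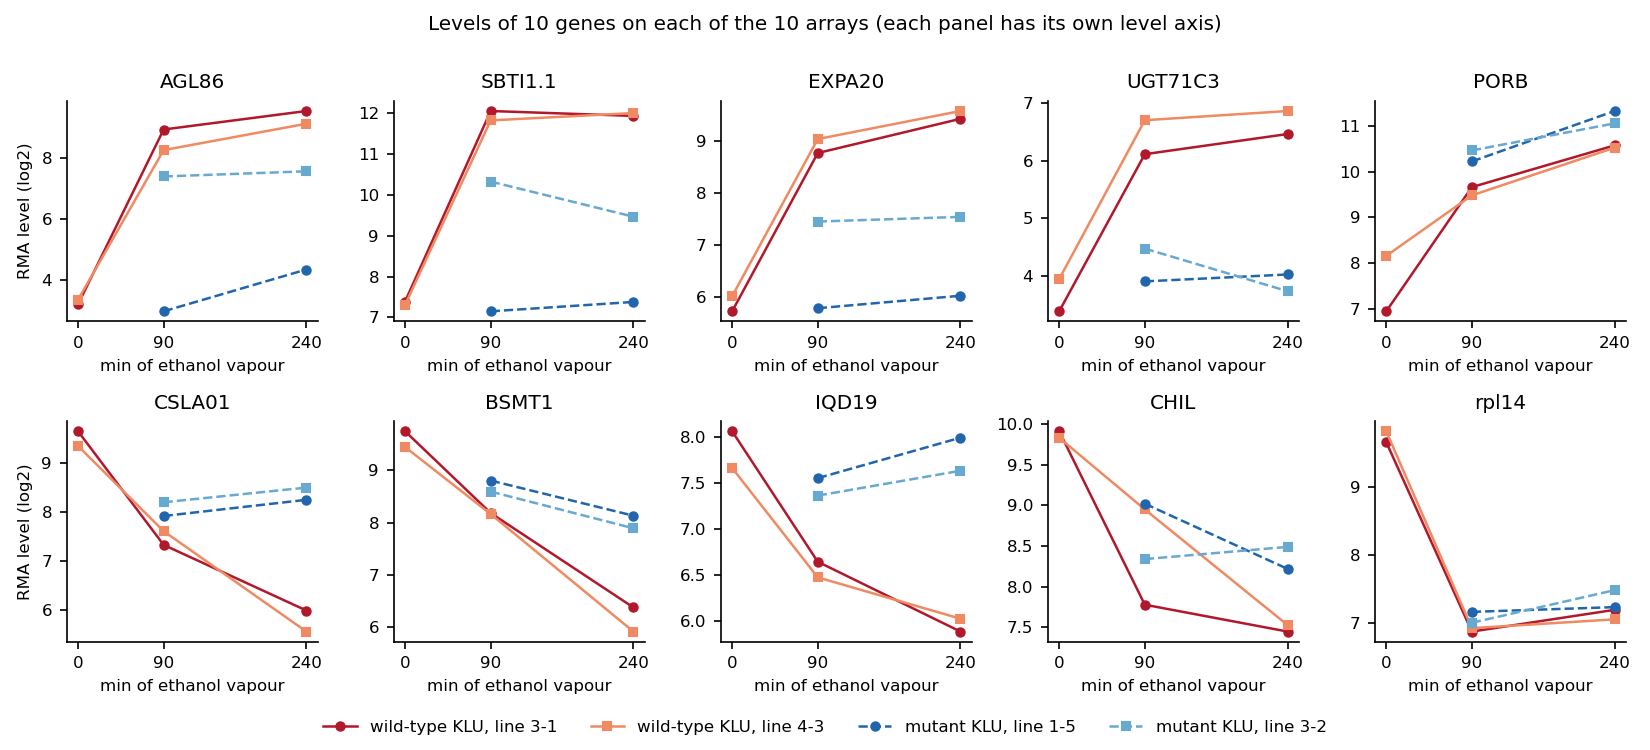
RMA level (log2, y axis) of 10 genes against min of ethanol vapour (x axis), 1 point per array, with both wild-type KLU lines in red tones and both mutant KLU lines in blue tones. AGL86, SBTI1.1 and EXPA20 show the 2 mutant lines apart, UGT71C3 and IQD19 show both mutant lines near the uninduced wild-type level, and PORB and rpl14 show the mutant arrays together with the induced wild-type arrays.

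The list of microtubule-associated genes, mostly IQD calmodulin-binding scaffold proteins that sit on microtubules, had 23 members with 1 rise (4.35%) and 4 falls (17.4%) and a median of -0.39. IQD19 went from 8.06 and 7.66 to 5.88 and 6.02 (-1.91 ± 0.16, adjusted p = 0.0021), with 6.64 and 6.47 at 90 min. The gene written iqd21 went from 7.12 and 7.22 to 5.20 and 5.75 (-1.70 ± 0.15, adjusted p = 0.0022). Both kept their calls against 0 min with each array left out. Both were also lower than with mutant KLU at 240 min, where IQD19 read 7.99 and 7.63 and iqd21 7.09 and 6.97 (adjusted p = 0.013 and 0.021). Calls between constructs depended on single arrays, as given above for their count. IQD30 fell by 1.01 and ATMAP65-6, a microtubule-bundling protein gene, by 0.63, and both lost their calls without the line 3-1 array at 0 or 240 min, ATMAP65-6 also without those of line 4-3 or any mutant array. The rise was TUA1, an alpha-tubulin gene best known from pollen, from 8.24 and 8.09 to 10.11 and 10.19 (1.99 ± 0.14, adjusted p = 0.0011), against 8.45 and 8.64 with mutant KLU (adjusted p = 0.014). TRM genes, which encode TON1-recruiting proteins of the cortical cytoskeleton, were grouped after the values were seen, and 5 of 15 fell with no rise and a median of -0.47. TRM28 was the one of these that kept its call throughout, from 6.16 and 6.72 to 4.49 and 4.93 (-1.73 ± 0.15, adjusted p = 0.0022). With any mutant array left out 2 TRM falls passed, and 1 did so without either uninduced array or the 240 min array of line 4-3.

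All 5 flavonoid genes that were matched by name fell, with a median of -1.51, and other genes of the pathway may lie among the unnamed probe sets. Besides CHIL these were DFR, the dihydroflavonol reductase gene of the anthocyanin branch, and UGT78D1, UGT78D2 and UGT78D3, which attach sugars to flavonols. UGT78D1 went from 9.17 and 9.65 to 7.63 and 7.81 (-1.69 ± 0.14, adjusted p = 0.002) and UGT78D2 from 8.87 and 8.73 to 7.48 and 7.52 (-1.30 ± 0.14, adjusted p = 0.0042). These 2 kept their calls with each array left out. UGT78D3 changed by -1.51 and DFR by -0.81. Without the line term 3 of the 5 passed, and 3 passed without the uninduced array of line 3-1 or without either 240 min array. The mutant arrays at 240 min lay between, with a median over the 5 genes of -0.81 in line 1-5 and -0.92 in line 3-2 relative to the mean uninduced level, and no member differed between constructs past the threshold. Flavonoid biosynthesis shares its phenolic precursors with lignin, and there HCT fell from 9.85 and 9.03 to 8.30 and 8.10 (adjusted p = 0.0091). CCR2, a cinnamoyl-CoA reductase gene, changed by -0.61 (adjusted p = 0.045), and the other 2 of the 4 lignin genes did not pass. HCT lost its call without the line 3-1 array at 0 or 240 min (adjusted p up to 0.0628) and CCR2 without any 1 of the 10 arrays (up to 0.244).

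UDP-glycosyltransferases attach sugars to hormones and small molecules. Of 47 named genes 4 rose (8.51%) and 6 fell (12.8%), 3 of the falls being the UGT78D genes, and the median was -0.15. Both shares lie near those of all probe sets with a symbol. UGT71C3, UGT71C4 and UGT71C5 are neighbours on chromosome 1 and all rose. UGT71C3 lay at 3.38 and 3.94 before induction and at 6.46 and 6.86 after, a rise of 3.00 ± 0.21 (adjusted p = 0.0011), and with mutant KLU at 4.02 and 3.73 (adjusted p of the difference 0.014). UGT71C5, whose product glucosylates abscisic acid, went from 4.75 and 4.74 to 6.11 and 7.47 (2.05 ± 0.33, adjusted p = 0.014, and 0.0704 without the 240 min array of line 4-3). UGT71C4 rose by 1.12 ± 0.24 (adjusted p = 0.032) and lost its call without any 1 of the 4 arrays compared (up to 0.158). Members of this cluster are close in sequence, and whether their probes share targets was not tested. UGT85A5 rose from 5.38 and 5.57 to 6.61 and 7.31 (1.49 ± 0.19, adjusted p = 0.0067) and kept its call with each array left out.

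BSMT1 had a companion among the methyltransferases in JMT, whose product makes methyl jasmonate. JMT went from 8.13 and 8.38 to 6.19 and 6.22 (-2.05 ± 0.14, adjusted p = 0.0011) and kept its call with each array left out. With mutant KLU at 240 min JMT lay at 6.90 and 6.79, not apart from wild-type KLU past the threshold (adjusted p = 0.15), whereas BSMT1 lay at 8.13 and 7.89 (difference -1.86 ± 0.19, adjusted p = 0.014).

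Plastid-encoded transcripts made up the longest list examined and held the largest number of falls. By share, some smaller lists had more, among them the expansins (27.8%), the cellulose synthase and synthase-like genes (37.5%) and the flavonoid genes (100%). Of 69 plastid genes 19 fell (27.5%), 1 rose (1.45%), and the median was -0.39, against between 4.08% and 5.54% lower among the named probe sets of the 5 nuclear chromosomes. The deepest falls were in single genes of the ribosome and of photosystem II. Other members of both classes changed upward without passing, such as rpl33 (0.585) and psbF (0.70). The ribosomal protein genes rpl14 (9.66 and 9.82 to 7.19 and 7.05, a change of -2.62 ± 0.15), rpl16 (11.78 and 11.16 to 8.78 and 8.80, -2.68 ± 0.24) and rpl20 (8.68 and 8.92 to 6.41 and 6.49, -2.35 ± 0.16) had adjusted p-values of 0.00072, 0.0024 and 0.0011. The photosystem II gene psbD went from 10.32 and 11.01 to 7.59 and 8.76 (-2.49 ± 0.16, adjusted p = 0.00089), and the ATP synthase gene atpI from 6.29 and 6.57 to 5.26 and 5.54 (-1.03 ± 0.12, adjusted p = 0.0049). All 5 kept their calls with each array left out. The 1 plastid rise was rps18, from 9.09 and 9.26 to 10.23 and 9.91 (0.90 ± 0.16, adjusted p = 0.017), which lost its call without the line 3-1 array at 0 or 240 min (up to 0.113). Without the uninduced array of line 3-1, 7 plastid falls passed, and without the 240 min array of that line 10.

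The plastid falls were present at 90 min and lay at similar levels on the mutant arrays. All 19 also passed at 90 min against the same uninduced arrays, where 464 of all probe sets were higher (2.04%) and 314 lower (1.38%), and their median was -1.37 at 90 min and -1.11 at 240 min. In the mutant lines their median against the mean uninduced level was -0.93 and -1.16 at 90 min and -1.29 and -1.10 at 240 min, in lines 1-5 and 3-2. No plastid gene differed between wild-type and mutant KLU at 240 min past the threshold, and rpl14 lay at 7.23 and 7.48 with mutant KLU.

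**Figure D4:**
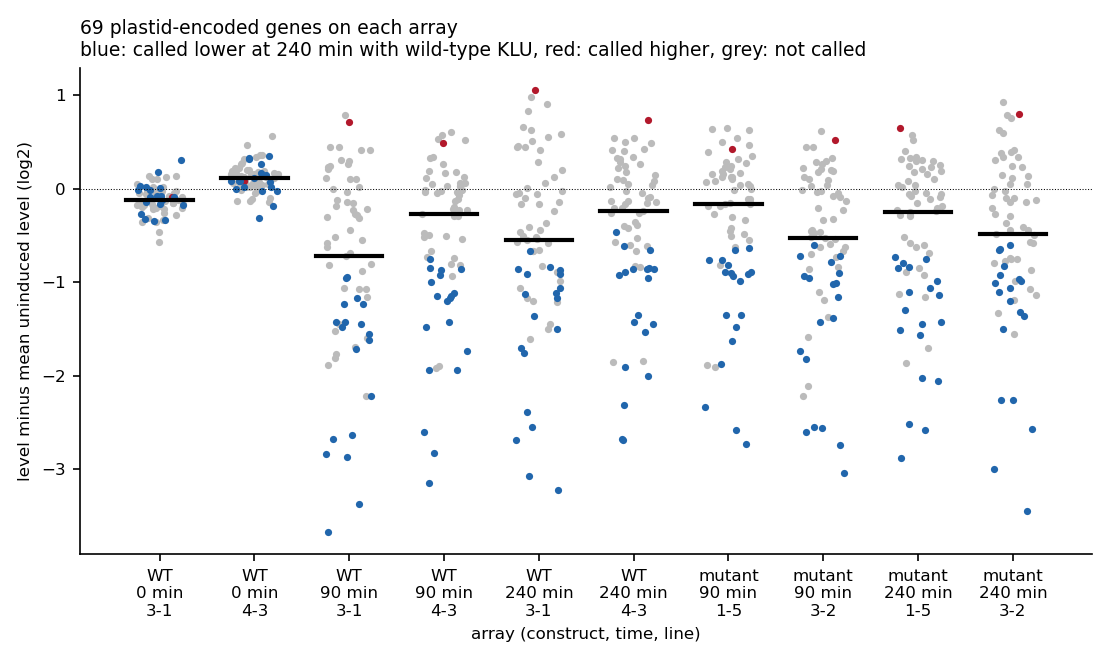
Level minus the mean uninduced level (log2, y axis) of the 69 plastid-encoded genes on each of the 10 arrays (x axis), 1 point per gene, with the 19 called falls in blue, the called rise in red and the median of all 69 as a black bar. On all 8 arrays taken after vapour the blue points lie below those of the uninduced arrays.

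None of 7 nuclear photosystem and antenna genes matched by name passed, and their median was 0.055. Among 5 chlorophyll synthesis genes PORB rose, which encodes a light-dependent protochlorophyllide oxidoreductase. PORB lay at 6.95 and 8.16 before induction and at 10.57 and 10.52 after 240 min, a rise of 2.99 ± 0.34 (adjusted p = 0.0044) that kept its call with each array left out. It was at 9.66 and 9.48 at 90 min and at 11.32 and 11.05 with mutant KLU at 240 min, above both wild-type arrays. GI, a clock gene, went from 7.57 and 7.01 to 8.25 and 8.70 (1.19 ± 0.28, adjusted p = 0.043), and read 8.83 and 8.79 with mutant KLU. COR27, a cold- and clock-regulated gene, went from 3.59 and 3.17 to 6.04 and 6.80 (3.04 ± 0.76, adjusted p = 0.0495) and read 7.67 and 6.96 with mutant KLU. GI and COR27 both lost their calls when either uninduced array was left out (adjusted p up to 0.179 and 0.252).

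Genes of alcohol, aldehyde and pyruvate metabolism are of interest because ethanol was the inducer. Of 10 measured, 2 rose and 2 fell, and the median was 0.068. PDC2, a pyruvate decarboxylase gene whose product makes acetaldehyde, went from 6.65 and 6.21 to 8.77 and 9.21 (2.56 ± 0.34, adjusted p = 0.0075, and 0.0556 without the uninduced array of line 3-1). The mutant arrays at 240 min read 8.76 and 8.65, a difference of 0.28 from wild-type KLU (adjusted p = 0.90). ALDH6B2 rose by 0.67 ± 0.15, while ALDH3F1 fell by 1.13 ± 0.15 and ALDH11A3 by 0.57 ± 0.13, with adjusted p-values of 0.034, 0.0071 and 0.038. ALDH3F1 lost its call without the line 3-1 array at 0 or 240 min, ALDH6B2 without any 1 of the 6 wild-type KLU arrays and ALDH11A3 without any 1 of the 10 arrays. MCCA and MCCB, the subunits of 3-methylcrotonyl-CoA carboxylase in leucine breakdown, rose by 1.12 ± 0.20 and 0.77 ± 0.18 (adjusted p = 0.018 and 0.041) among 5 genes of starvation and darkness. Both lost their calls without the uninduced array of line 3-1 or either 240 min array (up to 0.124 and 0.261), and MCCB also without any mutant or 90 min array.

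Sugar transporters had no rise and 3 falls among 16 (18.8%), with a median of -0.56. SFP2, a sugar-porter gene, went from 7.62 and 7.51 to 5.80 and 5.82 (-1.76 ± 0.18, adjusted p = 0.0033). SWEET1, a sugar uniporter gene, went from 10.61 and 10.34 to 9.21 and 8.79 (-1.48 ± 0.15, adjusted p = 0.0036). These 2 kept their calls with each array left out. SWEET17, a tonoplast fructose transporter gene, fell by 1.14 ± 0.19 (adjusted p = 0.016) and lost its call without either uninduced array or the 240 min array of line 4-3 (up to 0.116). The list's median differed between lines, with -0.79 in line 3-1 and -0.46 in line 4-3. The nitrate transporter gene NRT2.5 rose from 3.35 and 3.77 to 5.19 and 5.47 (1.77 ± 0.16, adjusted p = 0.0023), and was at 3.23 and 3.40 with mutant KLU (adjusted p of the difference 0.013).

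NGA1 and NGA4, B3-domain factors that restrain organ growth and pattern the style, went from 6.56 and 6.50 to 5.17 and 5.49 (-1.20 ± 0.18, adjusted p = 0.011) and from 5.59 and 5.55 to 4.69 and 4.98 (-0.74 ± 0.14, adjusted p = 0.024). ARL, whose product promotes cell expansion, went from 5.61 and 6.15 to 6.65 and 7.98 (1.44 ± 0.32, adjusted p = 0.037). The other 6 of these 9 genes did not pass, CYP78A9, a relative of KLU, among them. NGA1 and NGA4 lost their calls without the line 3-1 array at 0 or 240 min, NGA4 also without the 240 min array of line 4-3 or any mutant array, and ARL without either uninduced array or the 240 min array of line 4-3 (adjusted p up to 0.0883, 0.16 and 0.182). SIM, an inhibitor of cyclin-dependent kinases, fell by 0.82 ± 0.13 (adjusted p = 0.013, up to 0.0845 with 1 of the 4 arrays compared left out). None of 8 genes of DNA replication and histones passed, with changes between -0.39 and 0.32.

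Of 11 auxin response genes GH3.17 and GH3.9, whose family conjugates auxin to amino acids, fell by 1.09 ± 0.17 and 0.65 ± 0.16 (adjusted p = 0.011 and 0.048), and both depended on the uninduced array of line 3-1. None of 4 gibberellin genes passed, and none of 5 genes of auxin synthesis and transport. The median level of those 5 was 3.76 and 3.94 before induction, near the lower quartile of 3.875 over all probe sets. BIM1, a brassinosteroid signalling factor, went from 7.25 and 7.09 to 6.15 and 5.33 (-1.43 ± 0.18, adjusted p = 0.0061). It stood at 7.01 and 7.31 with mutant KLU, not apart from wild-type KLU past the threshold. WSD1, a wax ester synthase gene, went from 8.97 and 8.87 to 7.82 and 6.89 (-1.57 ± 0.20, adjusted p = 0.0067). Both kept their calls with each array left out. RALFL genes, which encode secreted signalling peptides, were grouped after the values were seen, and 4 of 11 fell with no rise. Of these RALFL34 went from 11.26 and 11.17 to 9.71 and 9.96 (-1.38 ± 0.18, adjusted p = 0.0075), and none of the 4 passed without the uninduced array of line 3-1.

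MADS factors had a low median level before induction (3.445 and 3.495), as had the 24 cytochrome P450 genes (3.605 and 3.775). The lower quartile over all probe sets was 3.875, so many members of both lists had little room to fall. The median change of the MADS list was -0.065. Of its 42 probe sets 3 were called, all rises (7.14%, near the 5.89% of probe sets with a symbol). Beside AGL86 these were AGL30, from 5.51 and 4.96 to 7.09 and 6.84 (1.73 ± 0.15, adjusted p = 0.0022), and 1 of the 2 probe sets of AGL26, which rose by 0.93 while the other, with levels below 3, changed by -0.04 and did not pass. None of 6 WRKY factors passed, and of 24 cytochrome P450 genes CYP71B28 alone did, with 0.99 ± 0.20 (adjusted p = 0.028, and up to 0.199 with 1 of the 4 arrays compared left out).

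**Figure D5:**
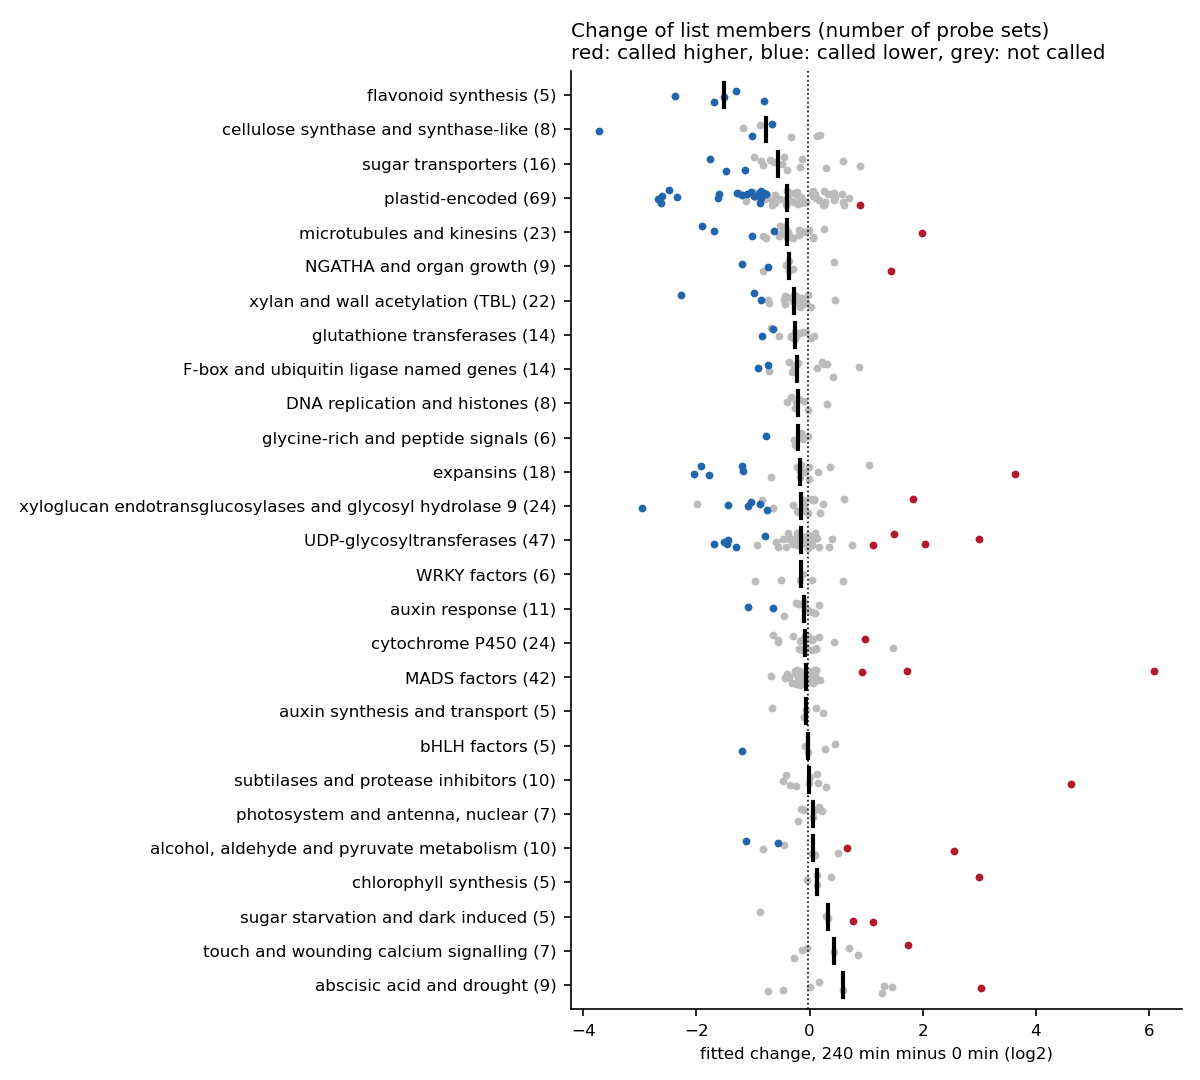
Fitted change from 0 to 240 min (log2, x axis) of each member of the lists with 5 or more genes, 1 point per probe set, with the list's number of probe sets in brackets, its median as a black bar and the median of all probe sets as a dotted line. The flavonoid members all lie at or below -0.81, the plastid list has a tail to -2.68, and EXPA20 and AGL86 lie far to the right of their families.

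Markers of the tissue and of other cell types were read on all 10 arrays. Of floral organ identity genes UFO alone was named, at 3.53 and 3.85 before induction and 3.29 and 3.60 after 240 min, so the label of young buds could not be checked closely. The ovule gene INO lay at 5.62 and 4.96 and at 5.33 and 4.71, and the tapetum gene AMS at 4.66 and 4.82 and at 4.42 and 4.64. The mean level of 11 pollen genes was 5.19 and 4.42 before induction, 6.20 and 4.76 at 90 min and 5.58 and 4.74 at 240 min, always higher in line 3-1. Of these 11 TUA1 and AGL30 rose, and in these 2 genes the lines were within 0.6 of each other at each time. PLIM2a, a pollen LIM protein gene, was at 6.0 and 3.85 before and at 7.25 and 3.87 after 240 min, so that its 2 lines differed more than its 2 times. The part of pollen content in the changes of TUA1 and AGL30 was not tested. The mean of 7 ovule and gynoecium genes was 6.23 and 6.0 before and 5.70 and 5.40 after, with NGA1 and NGA4 as the 2 falls, and the 2 root expansin genes lay between 3.76 and 4.43 at both times.

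No probe set differed between 90 and 240 min past the threshold (0% of 22746), while 3409 had an unadjusted p below 0.05, and 2313 in the fit without the line term. The called rises had a median change of 0.58 at 90 min and 1.02 at 240 min, and the called falls of -0.62 and -1.01. Among called probe sets that name 1 gene, those with the largest further rise after 90 min were AT5G52760, AT5G52750, AT5G39670, AT3G60420, AT4G27280 and AT3G62730. AT5G39670 lay at 3.16 and 3.16 before induction, 3.45 and 3.40 at 90 min and 5.72 and 6.96 at 240 min. Its change from 0 to 240 min was 3.18 ± 0.59 (adjusted p = 0.02), and it read 3.52 and 5.33 with mutant KLU at 240 min. AT3G62730 lay at 3.39 and 3.75, then 5.18 and 4.62, then 7.08 and 7.24, and was at 3.18 and 3.56 with mutant KLU. Of these 6 AT3G62730 kept its call with each array left out, and the others lost it without either uninduced array (adjusted p up to 0.189). The largest further falls among them were in BSMT1, AT5G03120, CSLA01, AT4G28780, AT1G75900 and AT3G07010. AT1G75900 lay at 9.55 and 9.28, then 8.85 and 8.73, then 7.16 and 7.36. Its change from 0 to 240 min was -2.16 ± 0.18 (adjusted p = 0.002).

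In RefSeq's gene order (assembly TAIR10.1), 19 runs of at least 3 genes that are neighbours among the named genes were called in 1 direction. Unnamed probe sets may lie between them. Of all probe sets that name 1 gene 5.77% were higher and 4.94% lower. The number of runs expected from these shares alone was not computed. Plastid genes made up some of the 19 runs, namely atpI, rps2 and rpoC2, then psaB, psaA and ycf3, and psbD, psbC and psbZ. The longest held 4 genes, AT3G12440, AT3G12460, AT3G12470 and AT3G12510, which rose by 3.83, 1.99, 1.97 and 1.43. AT3G12470 lay at 6.49 and 6.48 before induction, 8.78 and 8.12 after 240 min, and 6.42 and 6.42 with mutant KLU at 240 min. In all 4 the mutant arrays at 240 min lay within 0.34 of the mean uninduced level, and AT3G12440, AT3G12460 and AT3G12470 differed between constructs past the threshold (adjusted p = 0.009, 0.035 and 0.013). AT3G12440 and AT3G12470 kept their calls with each array left out, and the other 2 had adjusted p-values up to 0.0823. Next came runs of 3, among them the UGT71C genes and AT1G80130, AT1G80140 and AT1G80170. AT1G80140 rose from 4.33 and 4.53 to 8.09 and 7.73 (3.48 ± 0.20, adjusted p = 0.00062). AT1G29660, AT1G29670 and AT1G29680 rose by 1.14, 1.82 and 1.02, and AT1G80230, AT1G80245 and PPR596 by 0.73, 0.85 and 1.04. Whether neighbours share probes or transcripts was not tested.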

How the data were processed

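Total RNA of pooled inflorescences was biotin-labelled and hybridised to 10 ATH1 arrays, per the labels' protocols. The values the authors deposited are log2 intensities from RMA (submitters' processing notes), in a version not given in the sources used here. They were used as deposited. Of 22810 probe sets 64 controls were left out. In GEO's gene table, which can be old, 13513 of the 22746 name 1 gene, 503 several and 8730 are unnamed here, and 13436 matched RefSeq (TAIR10.1), used for names and gene order. Probe sets were tested singly.

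limma 3.58.1 (R 4.3.3) was fitted to all 10 arrays with line as a fixed block, two-sided, with Benjamini-Hochberg adjustment over 22746. The lines recur at each time, so they pair the arrays. The difference between lines correlated at 0.475 between 0 and 240 min, 0.633 between 0 and 90 min, 0.606 between 90 and 240 min and 0.348 in the mutant. Wild-type and mutant KLU, in different lines, were compared with 1 mean per group. No label gives a batch. The fit was tested on simulated data.

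The comparison, the lists (51 with a member, 469 genes) and the tests were chosen with earlier results of these data known. The genes named, from probe sets with 1 gene, were the 15 rises and 15 falls with the largest smaller-of-both-lines change, up to 5 per list, 4 per direction with opposite lines, 6 per direction by further change after 90 min, and the 5 longest runs. Other members of small counts, the TRM and RALFL genes and some uncalled markers were named after their values were seen. Genes known by locus alone have no role given. Alternatives were other blocks, fewer arrays, trended and robust variances, a level filter, quantile and median scaling, a 2-fold minimum and leaving out each array. Figures used matplotlib 3.10.9.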

Additional observations from a re-analysis of the deposited data

Results flagged for a closer look

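Between 0 and 240 min 67.9% of all probe sets changed with the same sign in both wild-type KLU lines. The 8 genes given here moved in opposite directions, and are not the only ones. They are the 4 in each direction with the largest change in the line that changed less, among probe sets that name 1 gene. The difference between lines was not tested, since each line has 1 array at each time. The values are the change in line 3-1 minus that in line 4-3. Line 3-1 was the one that fell for SBT4.13 (-3.02), AT5G61660 (-2.17), UGT85A3 (-2.02) and AT1G34340 (-1.79). Line 3-1 was the one that went up for AT5G12110 (3.21), AT5G47600 (2.45), AT1G54050 (1.62) and TBL41 (1.56). SBT4.13, a subtilase gene, went from 10.70 to 9.49 in line 3-1 and from 6.13 to 7.94 in line 4-3. None of the 8 was called over both lines.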

How the results depend on the processing

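The fit with line as a block was the one reported. With no replicate block 835 rises and 716 falls passed at 240 min against 0 min, and 369 probe sets at 90 min. With the 4 arrays compared alone 211 and 139 passed, and with a change of at least 2-fold 672 and 704. With 1 array left out the rises ranged from 313 to 1119, the falls from 303 to 1308, the 90 min calls from 169 to 748 and the wild-type against mutant calls from 4 to 219. The other settings, the 6 wild-type KLU arrays alone, a random block, robust trended variances, a filter at the median level, quantile scaling and median centring, moved the rises and falls by less than 1.5 times. The 90 against 240 min comparison had 0 calls under each setting run for it. Of 272 called genes followed, 0 changed direction, 218 missed the threshold with the 4 arrays alone, 92 without the block, 200 without line 3-1 at 0 min and 177 without that line at 240 min. With 3 residual degrees of freedom and 1 array per line and time, a lone array is assumed to vary like the others.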
